A study of Mus musculus with 2 samples.

Results

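The resident-like macrophages were 665 of 35848 retained cells from mouse abdominal aorta, 329 in Control and 336 in AngII+HS. The cells were chosen by raw UMI counts (unique molecular identifiers, 1 per captured RNA molecule). It needed at least 5 UMIs in the sum of C1qa, C1qb and C1qc, the chains of complement C1q, and at least 2 in the sum of Lyve1 (a hyaluronan receptor), Folr2 (folate receptor beta) and Cd163 (the receptor for hemoglobin bound to haptoglobin). It had to have fewer than 10 UMIs of S100a8 and S100a9, none of the endothelial genes Prox1 and Cdh5, none of the lymphocyte genes Cd3e and Cd79a, and at most 3 of the fibroblast gene Dcn. Barcodes were retained from 500 UMIs and 200 genes upwards when mitochondrial genes held less than 20% of the UMIs. The genes of this rule chose the cells, so their values below are a description.

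The study compared the abdominal aortas of 5-month-old male C57BL/6J mice that received angiotensin II at 1500 ng/kg/min from an osmotic minipump for 28 days, with 0.9% NaCl and 0.2% KCl in the drinking water (AngII+HS), with those of mice given normal saline (Control), to find which cells differ in aneurysm of the abdominal aorta. Each condition was 1 single-cell RNA library of pooled tissue, without a replicate. The study's legend gives 5 mice per pool, while the sample protocol names 1 control mouse and 2 treated mice. No difference between the conditions could be tested, and the 95% intervals given here cover counting error only. The barcode list recorded with each library had as many entries as the matrix of the other library (24804 and 11448, with 67 barcodes in both lists), so the lists were not used and the matrices were taken by their recorded sample. A swap of the matrices would turn every direction below. The smooth muscle markers stood at 24350 CPM (UMIs of the gene or list per 1000000 UMIs of the same cells) over all retained Control cells and at 4551 CPM over all retained AngII+HS cells, and the neutrophil markers at 106.0 and 651.4 CPM.

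Macrophages that live in the arterial wall take up debris, hyaluronan, iron and lipids, and many of them lie in the adventitia. Lyve1, Folr2 and Cd163 are widely used to mark such long-lived resident macrophages, in contrast to macrophages that arise from blood monocytes, which often carry more MHC class II on their surface. Lipid-associated macrophages, marked by Trem2, Gpnmb, Fabp5 and Spp1, are a state that is known from fat tissue and atherosclerotic plaques.

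The resident-like macrophages were a smaller share of the cells in AngII+HS, and a much smaller share of the macrophages. They made up 2.92% of 11288 retained cells in Control (exact binomial 95% interval 2.61 to 3.24) and 1.37% of 24560 in AngII+HS (1.23 to 1.52). Their numbers were almost equal, whereas all cells with at least 5 C1q UMIs numbered 471 in Control and 3439 in AngII+HS, which is 4.17% and 14.0% of the retained cells. The resident-like cells were 69.8% of these C1q cells in Control (65.5 to 74.0) and 9.77% in AngII+HS (8.80 to 10.8). Of the C1q cells that passed the limits on other cell types, they were 75.5% of 436 and 12.7% of 2640. Shares of cells in a dissociated tissue depend on what else was recovered, and fewer cells of a type and more cells of the others cannot be told apart.

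The gate counted raw UMIs, and the cells of both libraries differed in depth. The median resident-like macrophage had 4603 UMIs and 1881 genes in Control and 3586 UMIs and 1638 genes in AngII+HS, and the summed cells held 1768861 and 1473674 UMIs. Cells just inside the gate, with exactly 2 UMIs of Lyve1, Folr2 and Cd163, numbered 32 in Control (9.73%) and 85 in AngII+HS (25.3%). Just outside it, 45 Control and 208 AngII+HS macrophages had 1 UMI. Cells with 10 or more were 122 (37.1%) in Control and 57 (17.0%) in AngII+HS. At the limit on C1q, 8 Control and 7 AngII+HS members had 5 or 6 UMIs, and 7 and 6 cells that met every other limit had 3 or 4. Lymphocytes, which should lack these receptors, gave the background: no lymphocyte of 97 in Control (exact binomial upper limit 3.73%) or of 1076 in AngII+HS (0.342%) had 2 UMIs of Lyve1, Folr2 and Cd163. Their median depth was 4338 and 2624.5 UMIs. These lymphocytes were taken with at most 1 C1q UMI, and without that limit 1 of 99 in Control (1.01%) and 38 of 1164 in AngII+HS (3.27%) had 5 or more C1q UMIs.

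The 3 receptors that admitted the cells were not found in the same mixture in both libraries. All 3 had a UMI in 154 Control members (46.8%) and in 98 AngII+HS members (29.2%). Lyve1 was found in 78.1% and 62.5% of the members, Cd163 in 87.2% and 58.9%, and Folr2 in 67.5% and 78.6%. Members with Folr2 as the only one of the 3 were 6 cells in Control and 65 in AngII+HS. As summed levels, Lyve1 stood at 709.5 CPM in Control and 367.8 in AngII+HS, Cd163 at 688.0 and 452.6, and Folr2 at 368.6 and 513.7, while C1qa stood at 2075 and 3248. Lyve1 and Cd163 were thus lower and Folr2 higher in AngII+HS, and a smaller share of its members carried all 3.

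**Figure D1:**
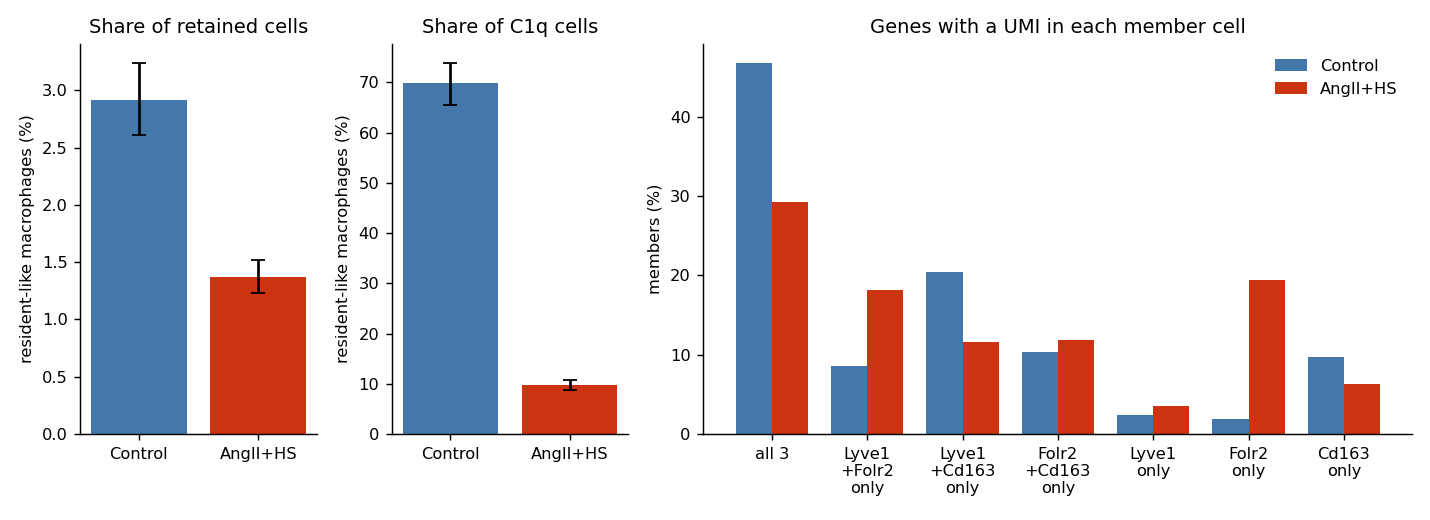
The left and middle panels show resident-like macrophages as a percentage of retained cells and of cells with at least 5 C1q UMIs, with 1 bar per library and exact binomial 95% intervals, and the right panel shows the percentage of members with each combination of Lyve1, Folr2 and Cd163 UMIs. The share of C1q cells was 69.8% in Control and 9.77% in AngII+HS, and the members with Folr2 alone were 1.82% and 19.3%.

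The label of resident-like macrophages was held against genes that the rule did not use. General macrophage genes were present in both libraries: Csf1r, the receptor for the growth factor CSF1, had a UMI in 85.7% of Control and 82.1% of AngII+HS members, and Adgre1, which encodes F4/80, in 78.4% and 78.9%. The mannose receptor Mrc1 was found in 96.7% and 95.8%, and F13a1, coagulation factor XIII, in 96.4% and 89.0%. Of 30 further genes that are used for resident macrophages, all had at least 50 UMIs in the members of both libraries together, although Cd5l had only 2 in Control. Compared with the 62 Control and 1747 AngII+HS C1q macrophages that had no UMI of the 3 receptors, Mrc1 stood at 1670 against 649.5 CPM in Control and at 1531 against 368 CPM in AngII+HS. F13a1 stood at 1989 against 337.6 CPM and at 1466 against 134.3 CPM. The sum of the 30 genes stood at 14000 against 5698 CPM and at 17710 against 4755 CPM. Not every gene went this way in both libraries: Clec4n stood at 45.23 against 28.94 CPM in Control but at 178.5 against 246.8 CPM in AngII+HS.

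The 8 genes with the highest ratio of members over those other C1q macrophages in both libraries had various roles. Fcna, the ficolin A lectin of the complement system, stood at 162 CPM in Control members and 200 in AngII+HS members, against 3.22 and 5.19 in the other C1q macrophages. Cd209d, a C-type lectin of the DC-SIGN family, stood at 77.5 and 86.2 CPM against 3.22 and 1.06. The further genes of this set were Ednrb (endothelin receptor type B), Ccl24 (an eosinophil attractant), Ltc4s (leukotriene C4 synthase), C4b, Cd209b and Ccl8. The reverse side held AA467197, Bcl2a1a, Sema4d, Arl5c, Cytip, F11r, Malt1 and Traf1. Bcl2a1a, an anti-apoptotic gene, stood at 5.65 and 27.8 CPM in the members against 99.7 and 213 in the other C1q macrophages, and Malt1 and Traf1, which act in NF-kB signaling, were at most 115 and 33.3 CPM in the members. Bcl2a1a and the Cd209 genes have close paralogs, among which reads can be assigned wrongly. Because the receptors that define the members also define this contrast, and only 62 Control cells stand on its other side, these values are a description. In the genome (GRCm39, GENCODE annotation) Lyve1 lies on chromosome 7 from 110448585 to 110462460 and Folr2 on chromosome 7 from 101489195 to 101506401. Cd163 lies on chromosome 6 from 124281606 to 124307560 and Fcna on chromosome 2 from 25514671 to 25519013. All are protein-coding genes, and their UMIs were counted per gene.

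Across all genes, 6838 had at least 50 UMIs in the members over both libraries and were compared. Of these, 341 (4.99%) were at least 2-fold higher and 555 (8.12%) at least 2-fold lower in AngII+HS, with a median log2 ratio of -0.07 over all genes. The higher genes were thus 38.1% of those past 2-fold. This split was 49.7% with TMM scaling, which set the median at 0.05 over the same cells and genes. It also differed under alternatives that changed the counts, the cells or the number of genes compared: it was 63.8% after subtraction of free RNA, 57.3% without predicted doublets and 63.0% without members that held more than 1 UMI of a set of markers of other cell types. Many of the lower genes were more abundant in other cells, since only 130 of the 555 reached at least the level over all retained Control cells. Of the 341 higher genes, 187 reached that level in AngII+HS. Of all 6838 genes, 3577 reached it in the library where they were higher, a share near that of the higher genes. The genes named below as highest and lowest were taken from 2547 that met this level in the library where they were higher.

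**Figure D2:**
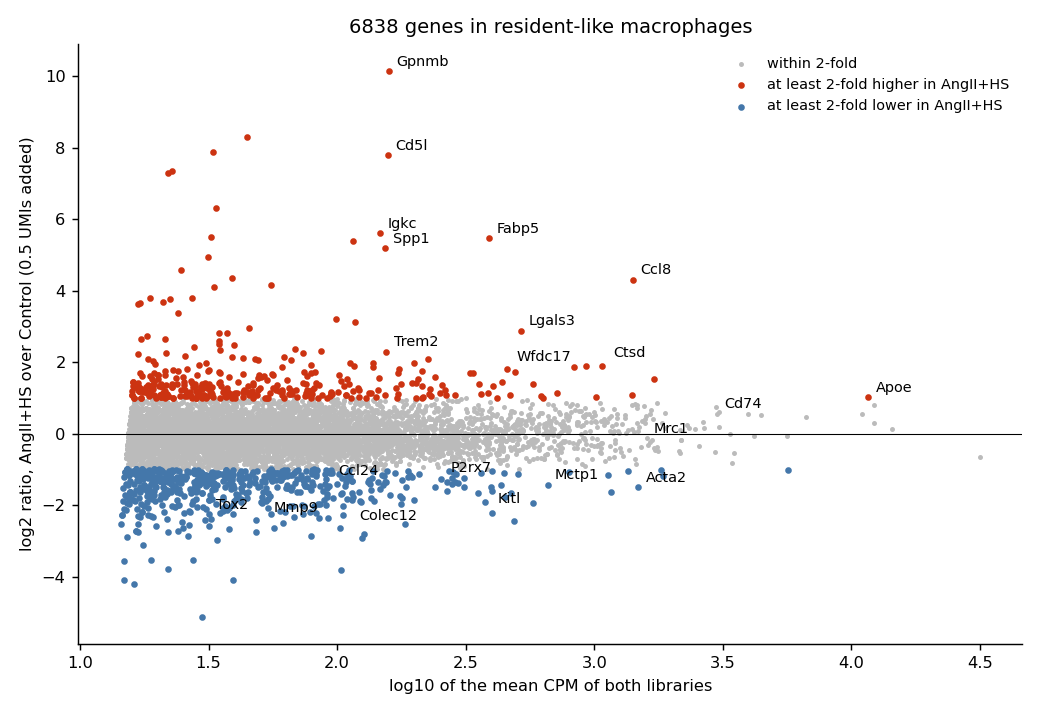
Each point is 1 of the 6838 genes in the resident-like macrophages, with the log10 of its mean CPM on the x axis and its log2 ratio of AngII+HS over Control, with 0.5 UMIs added to each count, on the y axis. The 341 red genes were at least 2-fold higher and the 555 blue genes at least 2-fold lower, and Ccl8 stands out by its ratio at a high level.

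Ccl8, a chemokine that attracts monocytes and other leukocytes through CC receptors, had the highest ratio after Fabp5 among the eligible genes. It stood at 136 CPM in Control members (95% interval 120 to 155) and at 2704 CPM in AngII+HS members (2621 to 2789), a log2 ratio of 4.31 (4.12 to 4.50). A Ccl8 UMI was found in 24.0% of Control members and in 70.8% of AngII+HS members, and after thinning every cell to 1000 UMIs, which left out 9 Control and 3 AngII+HS members, in 10.2% and 55.9%. The most Ccl8 in 1 cell was 16 UMIs in Control and 170 in AngII+HS, and 5 or more UMIs were found in 16 Control and 154 AngII+HS members. The level in AngII+HS was spread over many cells, and the 10 cells with the most held 24.0% of it in AngII+HS. In AngII+HS the other C1q macrophages stood at 197 CPM and the lymphocytes at 14.8 CPM, with a UMI in 5.67% of lymphocytes. In Control the other C1q macrophages stood at 16.1 CPM from 5 UMIs. Ccl8 lies on chromosome 11 from 82006007 to 82007625 (GRCm39). Its log2 ratio stayed between 3.96 and 4.49 under every alternative that was run, including members with Lyve1 only (4.25) and members without the third that had the most UMIs (4.11).

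Most other chemokines were within 2-fold. Of 15 chemokine genes that were compared, 3 were at least 2-fold higher (Ccl8, Cxcl12, Cxcl13) and 1 was lower (Ccl24), beside 4.99% of all genes higher and 8.12% lower, and the median log2 ratio was 0.32. Ccl2, the main attractant of monocytes with Ccr2, stood at 3380 CPM in Control and 3382 in AngII+HS, with a log2 ratio of 0.00 (-0.05 to 0.06). Ccl7 stood at 4254 and 4072 CPM, and Cxcl2, which attracts neutrophils, at 13620 and 15030 CPM. Ccl24 stood at 221 CPM in Control and 86.9 in AngII+HS, and was found in 48.3% and 21.7% of members. Cxcl13, a B cell attractant, was concentrated in few cells, with 78.7% of its AngII+HS UMIs in 10 cells. Pf4 stood at 1249 and 2257 CPM, and Ccl6 at 1066 and 1878 CPM.

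Genes of lipid-associated macrophages were higher in AngII+HS. All 20 were compared: 14 were at least 2-fold higher, none was 2-fold lower, and the median log2 ratio was 1.65, beside 4.99% of all genes higher and a median of -0.07. Their sum stood at 13160 CPM in Control and at 28840 CPM in AngII+HS. Per cell, the median of this sum was 14410 CPM in Control and 23600 CPM in AngII+HS, with 66.1% of AngII+HS members and 20.7% of Control members above 20000 CPM. Apoe, which carries lipid out of macrophages, made up most of it: it stood at 7686 and 15580 CPM and was found in 98.8% and 99.7% of members. Its log2 ratio of 1.02 lay at the limit of 2-fold and was as low as 0.44 with the gate applied to cells thinned to 2000 UMIs. The lysosomal protease Ctsd stood at 452 and 1694 CPM, and the cysteine protease Ctsl at 228 and 757 CPM. Lgals3, the galectin known as Mac-2, stood at 123 CPM (34.0% of cells) and 915 CPM (61.3% of cells), and Trem2, a lipid receptor, at 52.6 and 258 CPM with a UMI in 21.6% and 39.3% of members. After thinning to 1000 UMIs, Lgals3 was found in 10.7% and 32.8% of cells and Trem2 in 5.41% and 15.2%. Without the third of the members with the most UMIs, the log2 ratio of Lgals3 was 1.77 in place of 2.89, that of Ctsd 1.11 in place of 1.91 and that of Trem2 1.07 in place of 2.29. Over all members, Cd9 was the only gene of the list below 0, with a log2 ratio of -0.48.

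The sum of the list was similar in the other C1q macrophages, with 10990 CPM in Control and 27610 CPM in AngII+HS. Single genes differed more. Lpl stood at 19.2 CPM in Control members and at 164 CPM in the other C1q macrophages, and at 179 and 159 CPM in AngII+HS. Lgals3 was lower in the members than in those cells in both libraries (123 against 614 CPM in Control, 915 against 1558 in AngII+HS), and so was Trem2 (52.6 against 125, 258 against 324).

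Part of the list rested on few cells. Gpnmb, a membrane protein of lysosome-rich macrophages, had no UMI in Control members, where a floor of 3 UMIs is 1.70 CPM. In AngII+HS it had 470 UMIs (319 CPM, 188-fold above that floor). These came from 27 cells, and 93.2% from 10 of them. Members near the threshold, with 2 or 3 UMIs of the receptors, held 329 of the 470, those with 10 or more held 1, and only 8 came from outside the third of the members with the most UMIs. Fabp5, a fatty acid carrier, stood at 17.0 and 765 CPM (log2 ratio 5.47, 4.97 to 6.07) with 74.7% of its AngII+HS UMIs in 10 cells. Its log2 ratio was 3.34 with Lyve1 members only and 3.82 without the third of the members with the most UMIs. For Spp1 (osteopontin) the log2 ratio of 5.195 was 3.285 and 5.838 in these alternatives. In AngII+HS, Fabp5 stood at 1332 CPM in members with 2 or 3 receptor UMIs and at 252 CPM in those with 10 or more. Spp1 stood at 7.92 and 300 CPM with 72.2% in 10 cells, and Lpl (lipoprotein lipase) at 19.2 and 179 CPM with 79.2%. Of the 14 AngII+HS members with at least 3 Gpnmb UMIs, 13 had at least 3 of Fabp5, 9 of Spp1, 8 of Lpl and 11 of Trem2. In the other direction, 13 of 33 cells with at least 3 Fabp5 UMIs, 9 of 18 with Spp1, 8 of 17 with Lpl and 11 of 32 with Trem2 had at least 3 of Gpnmb. Cd5l, a protein of tissue macrophages that binds lipids, had 2 UMIs in Control and 463 in AngII+HS from 16 cells, 98.7% in 10 of them, and the scavenger receptor Marco had 0 and 131 UMIs, all in 6 cells.

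Most UMIs of Gpnmb and Fabp5 lay in members without Lyve1. In AngII+HS, Gpnmb stood at 22.1 CPM in the 210 members with a Lyve1 UMI and at 734 CPM in the 126 without, and Fabp5 at 176 and 1589 CPM. For the whole list the sum was 21220 and 39510 CPM, while the medians per cell were 22660 and 27580 CPM. In Control the medians were 14360 CPM in 257 members with Lyve1 and 14700 CPM in 72 without. When only members with Lyve1 were kept, 10 of the 20 genes were at least 2-fold higher with a median of 1.10, Trem2 had a log2 ratio of 1.68 and Lpl of -0.12. Without the third of the members with the most UMIs, 11 of 20 were at least 2-fold higher with a median of 1.09, and Apoe had a log2 ratio of 0.66. Over only those genes that still had 50 UMIs, the medians were 0.89 and 0.73, and 0.68 with the gate on thinned cells.

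**Figure D3:**
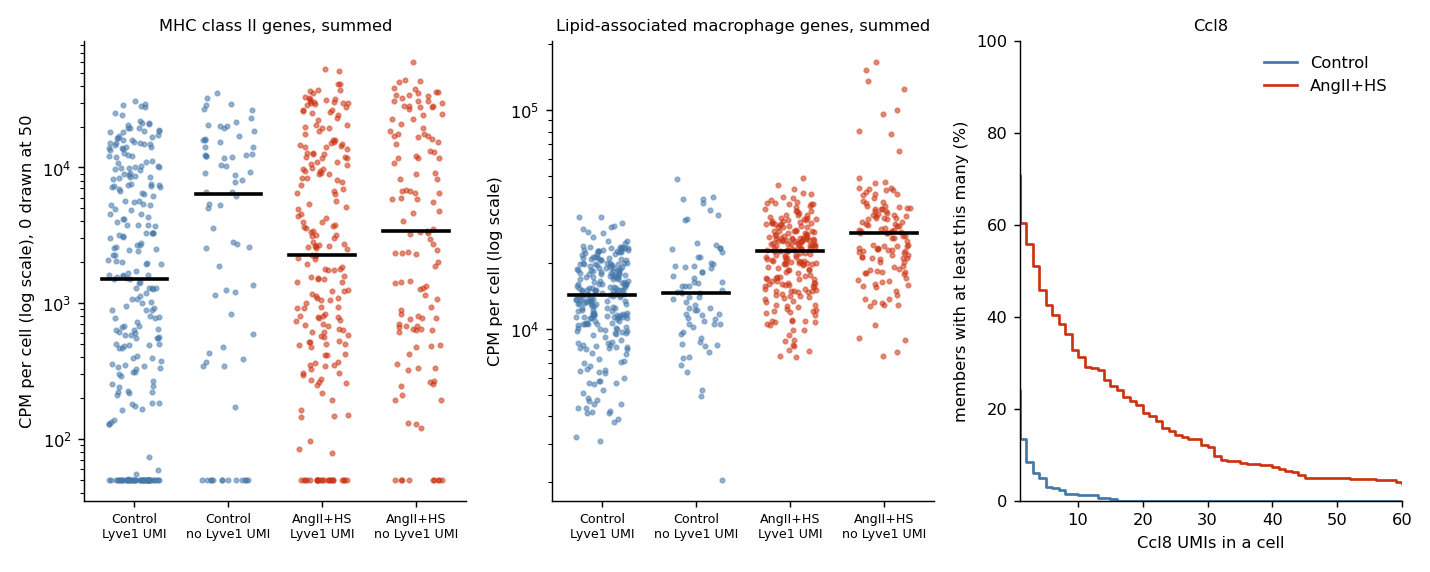
Each point of the left and middle panels is 1 member cell, with the summed CPM of MHC class II genes or of lipid-associated macrophage genes on a log axis, split by library and by a Lyve1 UMI, and the black bars are medians. The right panel gives the percentage of members with at least a given number of Ccl8 UMIs: 45.8% of AngII+HS and 4.86% of Control members had at least 5.

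MHC class II genes, which present antigen to CD4 T cells, varied widely between the cells of each library. All 6 genes of the 10 listed that had enough UMIs were higher in AngII+HS, none by 2-fold, with a median log2 ratio of 0.51 beside -0.07 over all genes, of which 4.99% were 2-fold higher. The median was 0.23 with free RNA subtracted, 0.32 without predicted doublets and 0.685 with Lyve1 members only. The log2 ratio of H2-Eb1 was 0.17, 0.26 and 0.658 in these alternatives. H2-Aa stood at 1016 and 1777 CPM, H2-Eb1 at 1034 and 1413, and the invariant chain Cd74 at 2417 and 3565. H2-DMb1, part of the complex that loads peptide, stood at 62.2 and 75.3 CPM, with an interval of the log2 ratio from -0.12 to 0.67. The sum per cell ran from 0 to 17580 CPM between the 10th and 90th percentiles of Control members and from 90.6 to 29900 CPM in AngII+HS, with medians of 1873 and 2646. In the other C1q macrophages the medians were 13430 and 16230 CPM. Within the members, Control cells with Lyve1 had a median of 1498 CPM and those without had 6354 CPM, and in AngII+HS the medians were 2270 and 3387 CPM. In both libraries, then, cells with Lyve1 held less MHC class II than cells without, and the gap was narrower in AngII+HS, a difference that was not tested.

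The promoters of class II genes are known for a short set of elements that act together, among them the Y box, a CCAAT element that is bound by NF-Y. The sequences of 3 of the measured genes are shown because they share that element, from 250 bases before to 50 after the start of the gene in RefSeq (GRCm38.p6), 5′ to 3′ in the direction of the gene, with GATTGG or its complement CCAATC in capitals.
H2-Aa (chr17:34287774-34288073, minus strand): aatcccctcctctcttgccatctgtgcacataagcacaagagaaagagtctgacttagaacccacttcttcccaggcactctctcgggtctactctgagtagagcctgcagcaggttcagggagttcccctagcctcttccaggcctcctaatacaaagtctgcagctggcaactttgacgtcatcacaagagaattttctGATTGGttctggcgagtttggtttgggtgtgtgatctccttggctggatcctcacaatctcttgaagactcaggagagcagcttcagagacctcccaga
H2-Eb1 (chr17:34305617-34305916, plus strand): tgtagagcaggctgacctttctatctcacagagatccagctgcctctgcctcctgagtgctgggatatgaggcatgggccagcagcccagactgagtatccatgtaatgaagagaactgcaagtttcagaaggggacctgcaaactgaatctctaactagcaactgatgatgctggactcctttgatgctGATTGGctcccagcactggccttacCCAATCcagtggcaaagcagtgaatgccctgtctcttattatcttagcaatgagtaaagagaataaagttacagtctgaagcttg
H2-DMb1 (chr17:34152941-34153240, plus strand): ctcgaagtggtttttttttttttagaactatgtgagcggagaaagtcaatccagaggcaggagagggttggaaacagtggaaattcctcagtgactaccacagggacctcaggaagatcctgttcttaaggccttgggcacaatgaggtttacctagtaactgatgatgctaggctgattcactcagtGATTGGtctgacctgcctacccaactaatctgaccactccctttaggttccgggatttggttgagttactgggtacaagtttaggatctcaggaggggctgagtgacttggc
The match starts 49 bases before the gene start in H2-Aa, 62 in H2-DMb1, and 60 and 35 in H2-Eb1. The table of promoters held 7 of the 10 listed genes with 8 promoters, 7 of which contained GATTGG on either strand, beside 16.1% of 32851 promoters of all genes. A match of 6 letters is a description of the sequence, and no binding was measured here.

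MHC class I presentation was also higher in AngII+HS, with 5 of 13 genes past 2-fold and none below, beside 4.99% of all genes, and a median log2 ratio of 0.94. The count was 2 with equal weight per cell and without the third of the members with the most UMIs, and 3 with the gate on thinned cells and without predicted doublets, with medians from 0.61 to 1.06 over the alternatives. H2-K1 stood at 1143 and 1978 CPM and B2m, the light chain of class I, at 1035 and 1844 CPM. The 5 genes were the class I gene H2-Q7, the peptide transporter gene Tap1, and Psmb8, Psmb9 and Psme1 of the immunoproteasome and its activator. Psme1 stood at 47.5 and 122 CPM. H2-Q7 has near-identical paralogs and its counts are uncertain. Over the members, most interferon-stimulated genes were within 2-fold: 3 of 18 were higher (Ifit2, Irf7, Bst2), beside 4.99% of all genes, and the median was 0.67. That median ran from 0.22 with the gate on thinned cells to 0.79 with TMM scaling. It was 0.40 with free RNA subtracted and 0.43 without predicted doublets. Irf7, an interferon regulatory factor, stood at 9.05 and 42.1 CPM, while Ifit1 stood at 245 and 230 CPM.

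Among the 30 further resident genes, most were within 2-fold: 6 were at least 2-fold higher and 2 at least 2-fold lower, beside 4.99% of all genes higher and 8.12% lower, and the median log2 ratio was 0.17, with a range of -0.01 to 0.41 over the alternatives. The higher genes were Ccl8, Clec10a, Clec4n, Vsig4, Sdc3 and Cd5l. Clec10a, a galactose-binding lectin, stood at 230 and 498 CPM and was found in 47.1% and 55.6% of members. Vsig4, a complement receptor of resident macrophages, stood at 29.4 and 71.3 CPM, with a UMI in 7.90% and 13.4%. The lower genes were Timd4, a receptor for phosphatidylserine on dying cells, at 44.1 and 21.0 CPM, and Mgl2, a relative of Clec10a, at 396 and 182 CPM. Mgl2 was found in 76.3% of Control and 36.6% of AngII+HS members. Selenop, which supplies selenium, stood at 2073 and 2247 CPM, and the transcription factor Maf at 777 and 799 CPM.

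Of the 30 resident genes, 24 were higher in members with Lyve1 than in those without in Control and 24 in AngII+HS, 21 of them in both. Of all 6838 genes, 59.1% were higher with Lyve1 in Control, 54.4% in AngII+HS and 32.2% in both. Lyve1 is one of the genes that admitted the cells, so these counts are a description. Timd4 stood at 51.9 CPM in Control members with Lyve1 and at 6.57 CPM in those without, and at 25.6 and 14.6 CPM in AngII+HS. F13a1 stood at 2199 and 982 CPM in Control and at 1907 and 848 CPM in AngII+HS. Fcna stood at 187 and 42.7 CPM in Control and at 263 and 112 CPM in AngII+HS. Other genes of the list went the other way, with Igf1 at 152 and 177 CPM in Control and at 211 and 321 CPM in AngII+HS. Selenop was higher with Lyve1 in Control (2151 and 1695 CPM) but not in AngII+HS (2145 and 2390 CPM), and Cd5l stood at 5.82 and 746 CPM in AngII+HS. The Control members without Lyve1 were only 72 cells, and Timd4 had 2 UMIs among them.

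The genes that were lower in AngII+HS among those at the level of the retained cells included several membrane and secreted proteins. Kitl, the ligand of the receptor KIT, stood at 584 CPM in Control (found in 73.0% of members) and at 208 CPM in AngII+HS (43.8%), with a log2 ratio of -1.49 (-1.68 to -1.30). After thinning, it was found in 37.3% and 20.1% of members. Mctp1, a membrane protein with C2 domains, stood at 960 and 357 CPM, and P2rx7, the ATP receptor that opens an ion channel, at 426 and 166 CPM. Mmp9, a gelatinase, stood at 142 and 41.4 CPM and Colec12, a scavenger receptor with a collagen stem, at 179 and 49.5 CPM. Fkbp5, a cochaperone of the glucocorticoid receptor, stood at 155 and 61.1 CPM. The lowest ratio was that of Tox2 (52.6 and 10.9 CPM, log2 ratio -2.24, -3.14 to -1.50), and the rest of the 15 were Nhej1, Pde4c, Tmod1, Tmem267, Dlg4, Adamtsl5, Ccl24 and Tagap. Without the third of the members with the most UMIs, the log2 ratio of Tagap was -0.42 in place of -1.32. That of Dlg4 was -0.85 in place of -1.52 and that of P2rx7 -0.96 in place of -1.36. The others of the 15 stayed past 2-fold. The other C1q macrophages also had less Kitl in AngII+HS (170 and 31.2 CPM), less Mctp1 (322 and 112 CPM) and less P2rx7 (145 and 44.8 CPM).

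**Figure D4:**
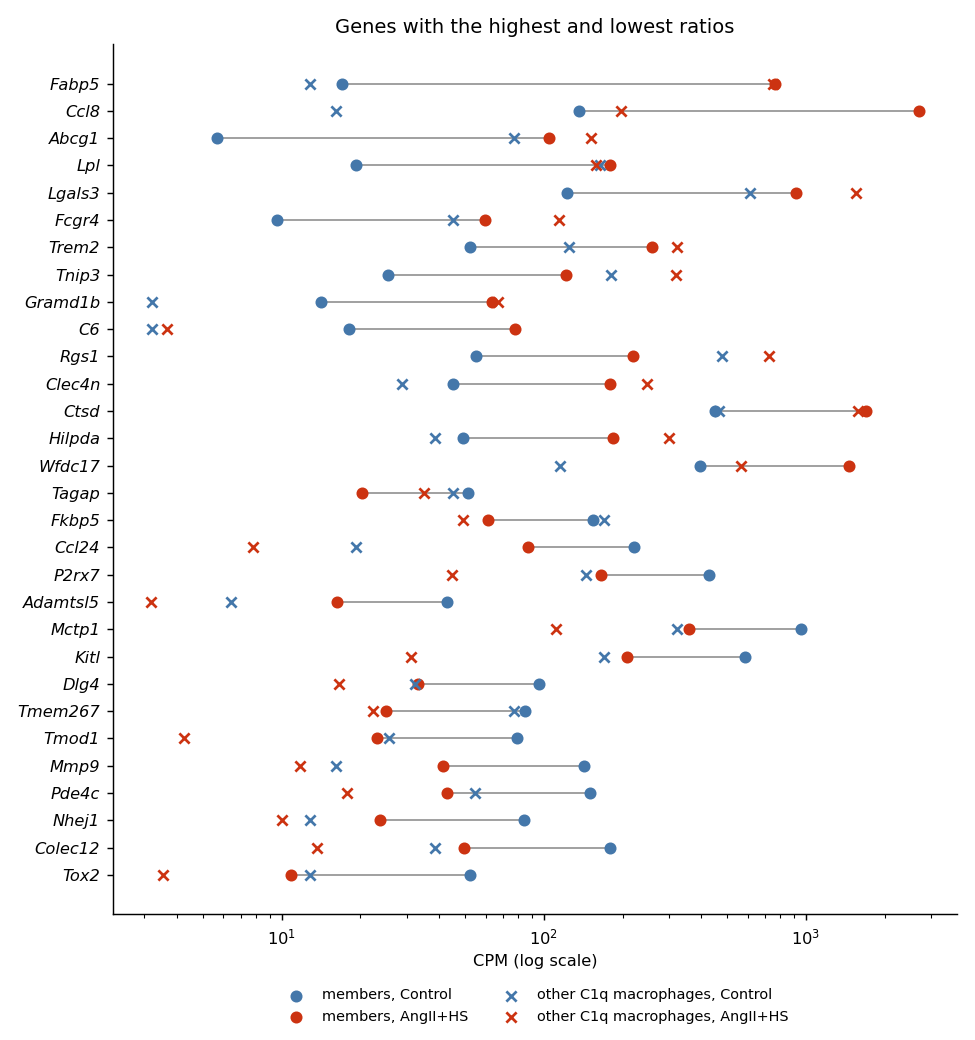
Of 2547 eligible genes, 15 at the top and 15 at the bottom of the log2 ratios are shown with their CPM on a log axis in members (circles) and in other C1q macrophages (crosses) of Control (blue) and AngII+HS (red). Ccl8 reached 2704 CPM in AngII+HS members and 197 CPM in the other C1q macrophages, whereas Fabp5 stood at 765 and 750 CPM.

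The other genes with the highest ratios had various roles. Wfdc17, a secreted protease inhibitor, stood at 394 and 1456 CPM and was found in 59.6% and 80.7% of members. Abcg1, a cholesterol exporter, stood at 5.65 and 105 CPM with 57.4% of its AngII+HS UMIs in 10 cells. Its log2 ratio of 4.15 was 2.75 with Lyve1 members only and 2.49 without the third of the members with the most UMIs. Fcgr4, an activating receptor for IgG, stood at 9.61 and 59.7 CPM, and Hilpda, a lipid droplet protein, at 49.2 and 183 CPM. C6, a component of the complement membrane attack complex, stood at 18.1 and 78.0 CPM in the members and at 3.22 and 3.66 CPM in the other C1q macrophages. Of 10 complement genes, C6, Cfb and C3 were at least 2-fold higher and none was lower, beside 4.99% of all genes higher and 8.12% lower. Cfb, complement factor B, stood at 10.2 and 80.7 CPM and was found in 3.95% and 24.1% of members, and C3 at 11.9 and 67.9 CPM. C3 was at 658 CPM over all retained AngII+HS cells, above its level in the members.

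Of 19 cytokine and NF-kB target genes, 4 were at least 2-fold higher (Il1b, Il1rn, Il18, Il10) and none was lower, beside 4.99% of all genes higher and 8.12% lower, with a median log2 ratio of 0.56. Il1b stood at 85.4 and 368 CPM, below the 2509 CPM of the other C1q macrophages in AngII+HS. In members with Lyve1 it stood at 50.5 and 455 CPM, and in members without at 253 and 246 CPM. Its log2 ratio of 2.10 was 3.16 with Lyve1 members only and 1.35 with free RNA subtracted. Its receptor antagonist Il1rn stood at 58.8 and 216 CPM. Il10, an anti-inflammatory cytokine, stood at 196 and 518 CPM and was found in 32.8% and 53.3% of members. Tnf stood at 1304 and 1095 CPM. Ccr2, the receptor of blood monocytes, was found in 1.82% of Control and 10.4% of AngII+HS members (8.48 and 46.8 CPM), and Plac8, another monocyte gene, in 0.912% and 10.7%. Both were higher in the other C1q macrophages of both libraries (132 and 148 CPM for Ccr2).

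Matrix genes were higher for some proteases. Of 14, 7 were at least 2-fold higher (Mmp12, Mmp14, Mmp19, Timp1, Ctss, Ctsl, Adam8) and 2 lower (Mmp9, Timp3), beside 4.99% and 8.12% of all genes, with a median of 1.14. With Lyve1 members only, 6 were higher and 4 lower, and without the third of the members with the most UMIs 4 were higher and 2 lower, with medians of 0.53 and 0.37 over the same 14 genes. Ctss, a lysosomal elastase, stood at 360 and 1309 CPM and was found in 76.6% and 93.8% of members. Mmp12, the macrophage elastase, was found in 1.22% and 2.08% of members, all its UMIs in 10 or fewer cells, and its ratio turned when only members with Lyve1 were kept (log2 ratio -1.11) and without the third with the most UMIs (-2.50). Among 17 growth and repair factors, Il1rn and Gdf15 were at least 2-fold higher and Pdgfa lower, beside 4.99% of all genes higher and 8.12% lower. Gdf15, a stress-induced cytokine, stood at 202 and 711 CPM, Pdgfa at 210 and 93.0 CPM, and Igf1 at 156 and 256 CPM.

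**Figure D5:**
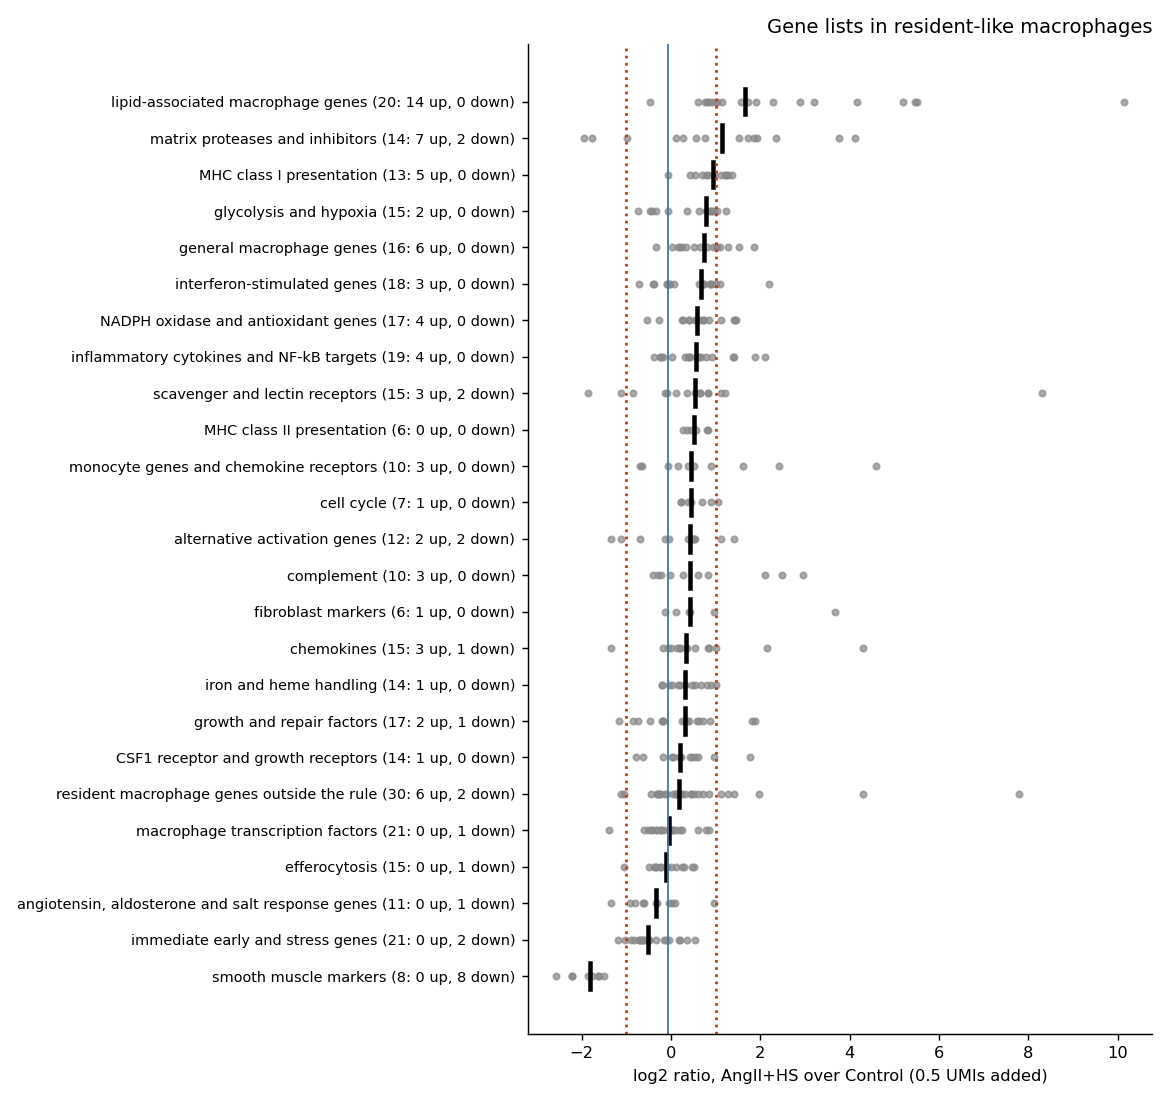
Each grey point is a gene of a list with at least 5 genes compared, at its log2 ratio of AngII+HS over Control with 0.5 UMIs added, black bars are list medians, red dotted lines mark 2-fold and the blue line marks the median of all genes, -0.07. The labels give how many genes were compared and how many were at least 2-fold higher (up) or lower (down), and lipid-associated macrophage genes had the highest median, 1.65.

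Most genes of the further lists were within 2-fold. Over all genes, 4.99% were higher and 8.12% lower. None of 21 macrophage transcription factors was 2-fold higher and 1 was lower (Hes1), and the sign of Hes1 turned under 3 alternatives. The median of this list was -0.06. Of 15 efferocytosis genes, which serve the removal of dying cells, only Timd4 passed 2-fold, and the receptor Mertk stood at 180 and 142 CPM. Of 14 genes of iron and heme handling 1 was 2-fold higher (Slc48a1), with the heme-degrading enzyme Hmox1 at 2214 and 2476 CPM. Of 11 angiotensin, aldosterone and salt response genes only Fkbp5 passed 2-fold, downwards, with a median of -0.34. The angiotensin receptor gene Agtr2, Agt and Ren1 had no UMI in the members of either library. Of 14 receptors for CSF1 and other growth factors 1 was higher (Csf2rb), of 17 NADPH oxidase and antioxidant genes 4 were higher (Cyba, Ncf4, Prdx5, Slc7a11), with a median of 0.58. Slc7a11 turned to a log2 ratio of -0.70 with free RNA subtracted. Of 15 glycolysis and hypoxia genes 2 were higher (Pgam1, Eno1), with a median of 0.78, and of 7 cell cycle genes 1 was higher (Mki67), with a median of 0.44. In the scavenger and lectin list 3 of 15 were higher (Marco, Clec7a, Clec10a) and 2 lower (Colec12, Mgl2) with a median of 0.54, and in that of alternative activation 2 of 12 were higher (Clec10a, Il10) and 2 lower (Mgl2, Ccl24). Of 16 general macrophage genes 6 were higher, among them Fcer1g, Tyrobp, Aif1, Ctss and Lgmn, and none was lower, with a median of 0.73 and Csf1r at 498 and 508 CPM. That count was 1 with equal weight per cell and without the third of the members with the most UMIs, and 2 with the gate on thinned cells and with Lyve1 members only.

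Immediate early genes, which respond within minutes to stimuli that include tissue dissociation, were mostly within 2-fold. Of 21, 2 were at least 2-fold lower (Fos, Egr1), beside 8.12% of all genes, and none was higher. The median log2 ratio was -0.53, and -0.29 without predicted doublets. Fos stood at 2580 and 1137 CPM in the members and at 6505 and 1708 CPM over all retained cells. After subtraction of free RNA the log2 ratio of Fos was -0.37 and that of Egr1 -0.36.

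Markers of other cell types differed between the libraries too. All 8 smooth muscle markers were at least 2-fold lower, beside 8.12% of all genes, and their sum stood at 5676 CPM in Control and 1791 CPM in AngII+HS members. Their median log2 ratio of -1.81 turned to 2.28 with free RNA subtracted, and was -0.33 without predicted doublets. The part subtracted came from the smooth muscle, fibroblast and neutrophil markers, as the median of their levels relative to all barcodes. It was 23.4% in Control, which is the smooth muscle value itself, and 10.6% in AngII+HS, the neutrophil value. The turn of the smooth muscle markers thus follows from that setting. Acta2 was the most abundant, at 2191 and 779 CPM with a UMI in 80.9% and 58.3% of members, and Myh11 stood at 661 and 141 CPM. The 8 fibroblast markers summed to 629.8 and 907.9 CPM (most abundant Col1a2). Their median log2 ratio of 0.42 was 7.23 with free RNA subtracted, 1.71 without predicted doublets and 1.89 without the third of the members with the most UMIs. Their level relative to all barcodes was 11.7% in Control, below the part subtracted, so the 7.23 follows from the setting too. The 8 neutrophil markers summed to 39.0 and 69.2 CPM with Camp at 0 in both, and the 8 markers of T and NK cells to 9.05 and 24.4 CPM. B and plasma cell markers summed to 84.8 and 408 CPM, and the median log2 ratio of the 2 that were compared turned from 3.03 to -0.008 with free RNA subtracted. Most of the sum in AngII+HS was Igkc, the kappa light chain, found in 3.04% of Control and 65.8% of AngII+HS members and at 6038 CPM over all retained AngII+HS cells. The 5 hemoglobin and erythroid genes summed to 1307 and 398 CPM, and 97.4% of the Hbb-bs UMIs in AngII+HS lay in 10 cells. Endothelial markers summed to 120 and 63.8 CPM, dendritic cell markers to 87.6 and 70.6 CPM and Schwann cell markers to 219 and 86.2 CPM. Neither free RNA nor doublets were removed from these values, and the part of other cells in the lower genes was not tested. With free RNA subtracted the log2 ratio was 4.10 for Ccl8, -1.67 for Kitl and -1.67 for Mctp1, and without the 29 Control and 21 AngII+HS members that Scrublet scored as doublets it was 4.07, -1.71 and -1.58.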

How the data were processed

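The deposited count tables hold UMI counts per gene and cell barcode, which the authors made with Cell Ranger without normalization. The files' header names Cell Ranger 8.0.1 and the study's methods another version. The labels name mm10 and the methods GRCm39, and 33185 of 33696 gene IDs were in the GENCODE annotation of GRCm39 used for positions. From the counts, the UMIs of the members were summed per library and divided by their total (CPM). Ratios are AngII+HS over Control with 0.5 UMIs added and exact conditional binomial 95% intervals. CPM has exact Poisson intervals and shares have Clopper-Pearson intervals. A gene counted as past 2-fold on the ratio without the addition, among genes with at least 50 UMIs, without the genes of the rule. The rule's limit on 1 further gene, and the values of some listed genes, are not reported here. With 1 library per condition there was no test. Named genes were the rule's genes, 15 highest and 15 lowest ratios (at least 100 UMIs, in at least 10% of members, at least the level of all retained cells), members of 32 gene lists, and 8 genes each way against C1q macrophages without UMIs of the receptors. Lymphocytes had at least 2 UMIs of Cd3e and Cd79a, at most 1 of C1q, at most 3 of Dcn and none of Prox1 and Cdh5. Members and lists were chosen with earlier results of these data known. Doublets were kept, and Scrublet in scanpy 1.11.5 was an alternative (0.8% of cells removed per 1000 cells). TMM factors came from edgeR 4.0.16. Analyses ran in Python 3.11.15 with pandas 2.3.3, scipy 1.17.1 and numpy 2.4.6. The intervals of the ratios were run on simulated counts drawn independently for each gene, which is what the intervals assume. UMIs gathered in few cells were not simulated, so that run cannot show how the intervals hold for such genes.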

Additional observations from a re-analysis of the deposited data

How the results depend on the processing

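The libraries have no replicate, so no value has an estimate of the spread between animals, and shallow cells limit shares of cells with a UMI. No paired analysis was possible because each condition is 1 library. The log2 ratio of the share of retained cells was -1.09, and -1.53 with at least 4 UMIs of the receptors. That of the share of C1q cells was -2.84, -3.27 with at least 4 UMIs and -2.53 without Scrublet doublets. With only members that had Lyve1, an alternative chosen after seeing the data, these were -1.41 and -3.16. The count of genes at least 2-fold higher (341 of 6838, 4.99%) was 2995 of 18568 (16.1%) with no minimum other than 1 UMI. In 2 alternatives chosen after seeing the data, fewer genes were compared. The count was 197 of 5840 (3.37%) with only members that had Lyve1. It was 148 of 4137 (3.58%) without the third of the members with the most UMIs. The count of lower genes (555 of 6838, 8.12%) was 191 of 5073 (3.765%) with a gate on cells thinned to 2000 UMIs. It was 276 of 6003 (4.60%) without Scrublet doublets and 204 of 5455 (3.74%) without members holding UMIs of other cell types. With equal weight per cell it was 364 of 6664 (5.46%), and after subtraction of free RNA 266 of 5792 (4.59%). With no minimum other than 1 UMI it was 4564 of 18568 (24.6%), and without the third with the most UMIs 118 of 4137 (2.85%). Hes1 turned to 0.11 with the thinned gate, 1.08 with free RNA subtracted and 0.39 without the third with the most UMIs. Lpl turned to -0.12 and Mmp12 to -1.11 with only Lyve1 members, and Mmp12 to -2.50 without the third with the most UMIs. With free RNA subtracted Slc7a11 was -0.70, and the median of smooth muscle markers 2.28 and of B and plasma cell markers -0.008. The smooth muscle markers themselves set the part subtracted in Control, so their value follows from the setting. The median of dendritic cell markers was 0.88 with no minimum other than 1 UMI. The cause was not tested. Of the 90 named and listed genes past 2-fold, 59 to 90 were still past it, depending on the alternative.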
